A study of Mus musculus with 6 samples.

Results

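NF-kappaB is a family of transcription factors that switch on genes of inflammation, and the messenger RNAs described here belong to 10 genes of that pathway: the subunits Nfkb1, Nfkb2, Rela and Relb, the inhibitors Nfkbia, Nfkbiz and Tnfaip3, and the classic targets Icam1, Vcam1 and Csf1. They were measured on Affymetrix Mouse430_2 arrays in primary cultures of dermal fibroblasts, the collagen-making cells of the skin, which had migrated from explants of B6 mouse pups. The members are the probe sets whose annotation gives exactly 1 gene symbol equal to one of these genes. There were 22 such probe sets of 9 genes, out of 45037 probe sets on the array and 18193 genes with a probe set of their own, and Nfkb1 was not analysed here. The control group was 3 cultures with nothing added, and the Et1 group was 3 cultures exposed for 24 hours to 100 nM of a synthetic peptide of human and porcine endothelin 1 (Et1), known as a constrictor of blood vessels. No genotype beyond the strain is given, and all cultures were of mixed sex, at passage 6 (5 in the design text), from pups aged 0 to 2 days (up to 3 in the design text), in medium with serum. Cells were split into a treated and an untreated culture, but the labels do not say that cultures of the same number came from 1 split, and they name no animals or litters, so the p-values measure the spread between these cultures.

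In resting cells NF-kappaB dimers are held in the cytoplasm by IkappaB proteins. Inflammatory signals such as tumour necrosis factor or interleukin 1 lead to the breakdown of IkappaB, and the freed dimers enter the nucleus. Among the genes they then switch on are their own brakes, Nfkbia and Tnfaip3, so that the level of these transcripts is commonly read as a sign of recent pathway activity. In skin fibroblasts the pathway is known for raising chemokines, adhesion molecules and colony-stimulating factors that draw in and feed leukocytes.

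The pathway acts on its target genes through short kappaB sites in the DNA, and stretches with such letters were looked up in the promoters. RefSeq's table (GRCm38.p6) gave 9 windows for 6 of the 10 genes. The 250 bases before each gene start were searched on both strands for the kappaB consensus, GGGRNNYYCC, and for GGAANTTCC, which overlaps it in part. R stands for A or G, Y for C or T and N for any base. All letters are printed as on the gene's strand, where a match on the opposite strand reads GGRRNNYCCC. The matches GGAAATTCCC, GGAAATCCCC and GGAAAGTCCC below are of that second form. Of the 4 genes shown here, Nfkbia and Tnfaip3 are the feedback inhibitors, Icam1 is the adhesion molecule and Csf1 the growth factor. Capitals mark the matches, and each sequence runs 5′ to 3′ towards the gene start.
Nfkbia, chr12:55492648-55492897, minus strand: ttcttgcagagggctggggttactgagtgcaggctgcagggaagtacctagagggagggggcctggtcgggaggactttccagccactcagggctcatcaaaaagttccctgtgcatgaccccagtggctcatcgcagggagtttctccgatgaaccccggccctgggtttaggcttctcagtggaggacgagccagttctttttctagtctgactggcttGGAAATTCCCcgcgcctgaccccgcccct
Tnfaip3, chr10:19015411-19015660, minus strand: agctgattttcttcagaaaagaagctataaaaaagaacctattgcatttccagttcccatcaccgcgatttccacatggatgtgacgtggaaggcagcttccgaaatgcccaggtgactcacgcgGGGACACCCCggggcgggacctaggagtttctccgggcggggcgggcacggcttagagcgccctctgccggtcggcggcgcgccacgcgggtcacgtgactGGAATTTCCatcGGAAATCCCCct
Icam1, chr9:21015690-21015939, plus strand: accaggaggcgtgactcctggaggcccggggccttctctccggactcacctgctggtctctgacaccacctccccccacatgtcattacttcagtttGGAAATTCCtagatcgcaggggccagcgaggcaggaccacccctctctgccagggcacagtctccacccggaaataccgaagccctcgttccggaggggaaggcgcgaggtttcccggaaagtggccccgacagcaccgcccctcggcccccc
Csf1, chr3:107760470-107760719, minus strand: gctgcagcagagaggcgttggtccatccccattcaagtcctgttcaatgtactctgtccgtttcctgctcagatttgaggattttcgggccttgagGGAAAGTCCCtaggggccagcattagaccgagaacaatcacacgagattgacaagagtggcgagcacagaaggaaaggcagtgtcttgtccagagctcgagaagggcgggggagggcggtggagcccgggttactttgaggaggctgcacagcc
In Nfkbia the kappaB match GGAAATTCCC lies 29 to 20 bases before the start and holds the GGAANTTCC match GGAAATTCC. Tnfaip3 has the kappaB matches GGGACACCCC at 125 to 116 and GGAAATCCCC at 12 to 3 bases, with GGAATTTCC at 24 to 16 bases between them. Icam1 has GGAAATTCC at 153 to 145 bases and no match to the kappaB consensus in this window, and Csf1 has GGAAAGTCCC at 154 to 145 bases. The 3 windows of Nfkb2 each hold at least 1 kappaB match, among them GGGACTTTCC, and the window of Rela and the other window of Tnfaip3 hold none. Of 32851 windows of this length in the table, 7.25% hold a kappaB match and 0.813% a GGAANTTCC match. These genes were chosen for their place in the pathway, and a match is a stretch of letters, not a measured binding site.

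None of the 9 genes passed the test between Et1 and control cultures, with or without a filter on low signals. With Et1, mean signals were lower in 4 of 5 probe sets of the brake Nfkbia and 3 of 3 of its relative Nfkbiz. They were also lower in 3 of 3 of the adhesion gene Vcam1. Means were higher in both probe sets of the brake Tnfaip3 and in the 4 of the growth factor Csf1. No probe set reached the threshold in either direction, and differences between these genes were not tested. Of the 22 probe sets 19 of 7 genes passed the filter on low signals, a mean scaled signal of at least 41.0, and were tested with limma, which called 0 of them at an adjusted p of 0.05, against 0.346% of all 22519 probe sets tested (0.0977% higher and 0.249% lower). With the replicate number as a block it again called 0 of 19 (all probe sets: 2.52%), and with no filter 0 of 22 (all probe sets: 0.0888%). At an unadjusted p under 0.05 there were 2 of 19, or 10.5%, both lower, against 12.3% of all probe sets (6.38% lower and 5.94% higher). The mean log2 signal was lower in Et1 cultures for 13 of 19, or 68.4%, against 45.9% of all. The median log2 fold change of the 19 was -0.11, and that of all tested probe sets 0.032. The groups did not overlap for 2 of 19 (all probe sets: 17.6%), with the 3 Et1 signals below the 3 control signals in both (all probe sets: 8.11%) and above them in 0 of 19 (all probe sets: 9.47%). Probe sets of the same gene share its transcripts and are not independent.

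**Figure D1:**
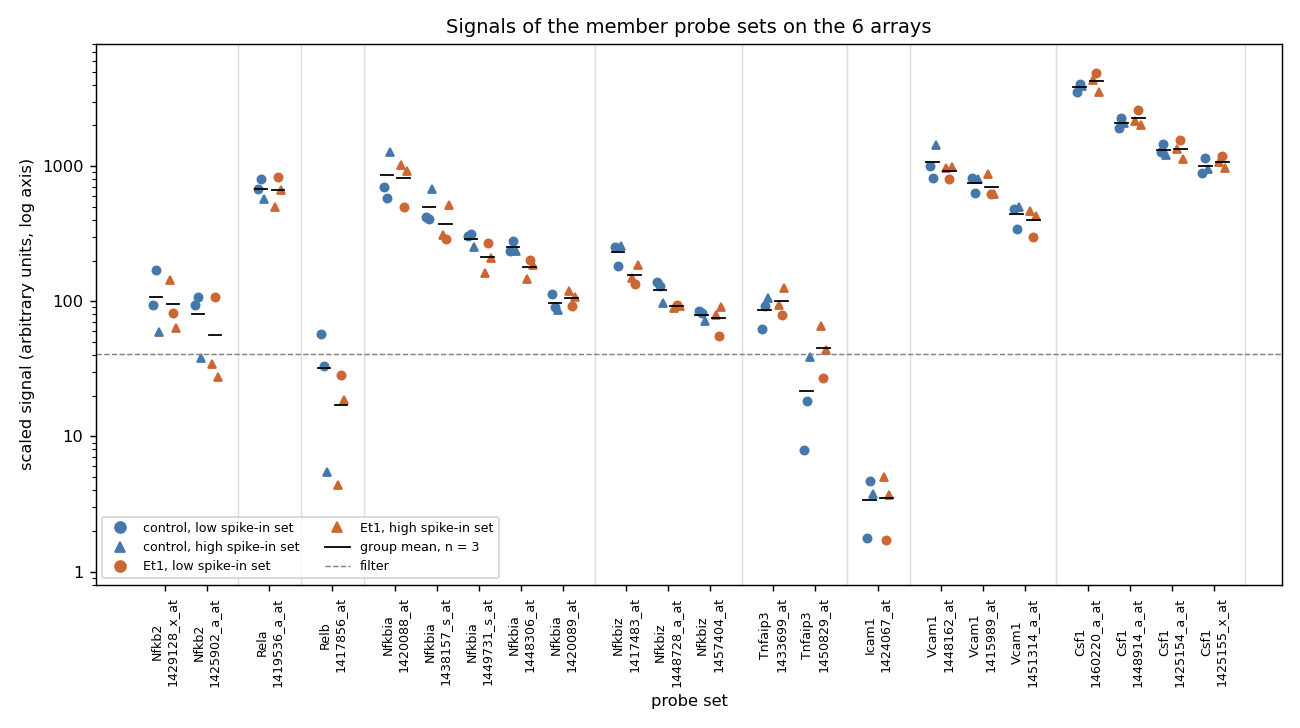
Scaled signals (arbitrary units, log axis) of the 22 member probe sets on the 3 control (blue) and 3 Et1 (orange) arrays, with group means as bars, the arrays of the high spike-in set as triangles and the filter of 41.0 as a dashed line. Csf1 and Vcam1 lie far above the filter in every array with overlapping groups, and Icam1 and Relb have means below it.

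Signals below are scaled to a common 2% trimmed mean of 139 and are given as control replicates 1, 2 and 3, then Et1 replicates 1, 2 and 3. The deposited signals had trimmed means of 91.7 to 179. The arrays also fall into a low and a high set on 27 probe sets for bacterial poly(A) spike-in controls. The low set is Et1 replicate 2 with control replicates 1 and 2, at mean log2 signals of 3.45 to 3.57. The high set is Et1 replicates 1 and 3 with control replicate 3, at 4.75 to 5.64. Whether these controls were added and what the sets stand for is not given in the sources used here, and the array settings files hold 1 and the same text for the 6 arrays apart from the lines on sample, project and operator. Markers of dermal fibroblasts were present, with Col1a1, the main collagen of skin, at 1159 to 6728 and Vim, a filament protein of mesenchymal cells, at 6833 to 10130 (brightest probe set of each), and Lum, a proteoglycan of the dermis, low at 21.8 to 51.7. The summed signal of the 10 fibroblast markers ranged from 22196 to 36456 over the control arrays, and from 15875 to 27704 over the Et1 arrays. These ranges overlap. Col1a1, a part of the sum, read 5633 to 6728 in the low and 1159 to 1897 in the high spike-in set.

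The subunits of NF-kappaB are the DNA-binding proteins themselves. Rela encodes p65, the subunit that carries most of the power to switch genes on. Its probe set 1419536_a_at read 674, 796 and 573 in control and 494, 833 and 666 in Et1 cultures. The groups overlap, with Et1 replicate 2 highest and Et1 replicate 1 lowest. The log2 fold change of Rela was -0.054 (SE 0.22; 95% interval -0.55 to 0.44; adjusted p = 0.942, limma), and in fold terms the interval ran from 0.683 to 1.36.

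Nfkb2 encodes p100, which is cut to p52 in the non-canonical arm of the pathway. Probe set 1425902_a_at of Nfkb2 read 94.3, 108 and 38.2 in control and 34.1, 108 and 27.3 in Et1 cultures, a log2 fold change of -0.65 (95% interval -1.95 to 0.65; adjusted p = 0.685, limma). Probe set 1429128_x_at, of a kind that can also bind related sequences, read 93.3, 169.7 and 59.4 in control and 143, 81.1 and 63.4 in Et1 cultures, a log2 fold change of -0.12 (95% interval -1.07 to 0.83; adjusted p = 0.935, limma). Both spread widely within each group, and in fold terms the wider of the intervals ran from 0.258 to 1.57. In 1425902_a_at the 3 arrays of the low spike-in set read 94.3 to 108 and the 3 of the high set 27.3 to 38.2. Allowing for the set, its log2 fold change was -0.11 (adjusted p = 0.879, limma), with 0.096 within the low and -0.32 within the high set. With 1 array left out it ran from -1.26 without Et1 replicate 2 to -0.27 without Et1 replicate 3.

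Relb, the partner of p52 in the non-canonical dimer, had a mean below the filter and was not tested with the rest. Its probe set 1417856_at read 57.4, 33.1 and 5.42 in control and 4.38, 28.5 and 18.6 in Et1 cultures. The groups overlap, and the 3 arrays of the low spike-in set, at 28.5 to 57.4, all lie above the 3 of the high set, at 4.38 to 18.6. With no filter the log2 fold change of Relb was -0.71 (95% interval -2.95 to 1.52; adjusted p = 0.885, limma).

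Among the inhibitors, Nfkbia encodes IkappaB-alpha, which holds p65 dimers in the cytoplasm and is remade when they have been active. It has 5 probe sets, and those whose names end in _s_at are of a kind that can also bind other transcripts. Probe set 1448306_at of Nfkbia read 234, 280.2 and 237 in control and 146, 200.3 and 187 in Et1 cultures, so the 3 Et1 signals lay below the 3 control signals. Its means were 250.5 ± 25.8 and 178 ± 28.4 (SD, n = 3). The log2 fold change was -0.50 (SE 0.18; 95% interval -0.91 to -0.092), with an adjusted p of 0.310 from limma and an unadjusted p of 0.022. It had the smallest p of the 19 probe sets and did not pass the threshold. Probe set 1449731_s_at read 305, 313 and 251 in control and 162, 268 and 209.6 in Et1 cultures, a log2 fold change of -0.47 (adjusted p = 0.422, limma). Here Et1 replicate 2 lay above control replicate 3, so the groups overlap.

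The other probe sets of Nfkbia did not follow the same pattern over the arrays. Probe set 1420088_at read 704, 577 and 1278 in control and 1014, 501 and 920.4 in Et1 cultures, a log2 fold change of -0.050 (adjusted p = 0.969, limma). Its 3 highest signals are the 3 arrays of the high spike-in set. Probe set 1438157_s_at read 419, 402 and 679 in control and 309, 288 and 518 in Et1 cultures, a log2 fold change of -0.44 (adjusted p = 0.574, limma), with control replicate 3 highest. Probe set 1420089_at read 113, 89.9 and 86.5 in control and 118, 92.5 and 108 in Et1 cultures, a log2 fold change of 0.14 (adjusted p = 0.809, limma). It is the 1 probe set of Nfkbia with a higher mean in Et1 cultures. The mean of the 5 probe sets gave a log2 fold change of -0.26 (SE 0.16; adjusted p = 0.555, limma).

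Nfkbiz encodes IkappaB-zeta, a nuclear member of the IkappaB family that is needed for a subset of NF-kappaB targets such as Il6. Probe set 1417483_at of Nfkbiz read 251, 182 and 256 in control and 149, 135 and 186 in Et1 cultures, with means of 229.7 ± 41.5 and 157 ± 26.6 (SD, n = 3). Et1 replicate 3 lay just above control replicate 2, and every other Et1 signal lay below the controls. The log2 fold change was -0.55 (SE 0.20; 95% interval -1.01 to -0.082), with an adjusted p of 0.333 from limma and an unadjusted p of 0.0261. Probe set 1448728_a_at read 138, 129 and 97.5 in control and 88.5, 94.4 and 91.7 in Et1 cultures, all lower with a log2 fold change of -0.39 (95% interval -0.83 to 0.048; adjusted p = 0.461, limma). The SD was 2.98 over its Et1 and 21.3 over its control signals, so the controls spread more. Probe set 1457404_at read 85.2, 82.0 and 72.0 in control and 79.7, 55.4 and 90.2 in Et1 cultures, a log2 fold change of -0.11 (adjusted p = 0.881, limma).

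**Figure D2:**
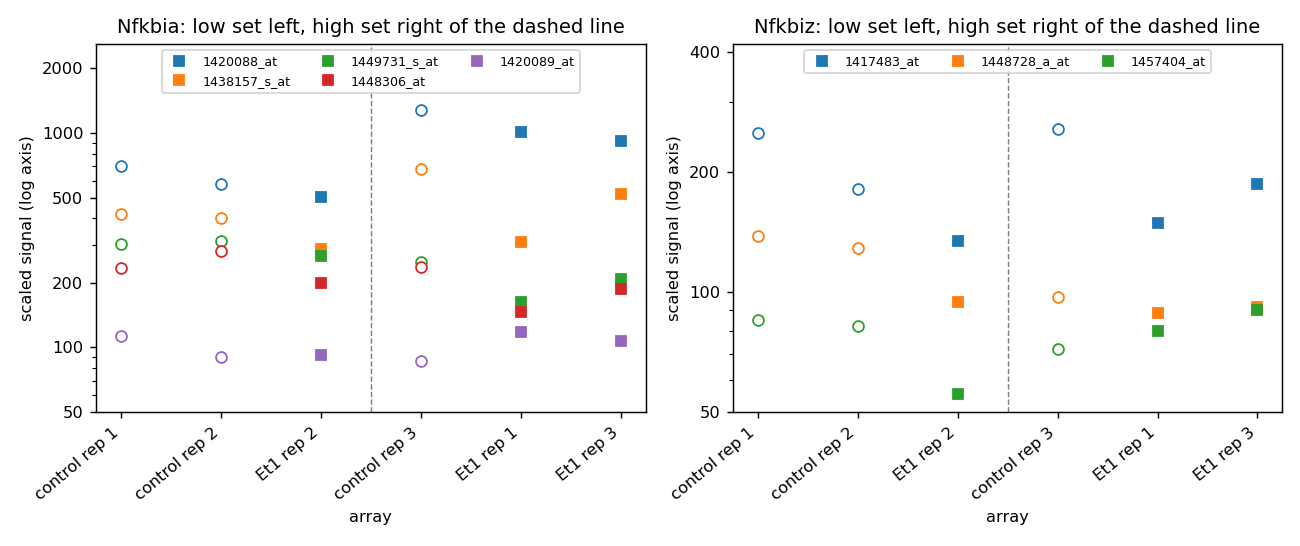
Scaled signals (log axis) of the 5 probe sets of Nfkbia (left) and the 3 of Nfkbiz (right) on each array, open circles for control and filled squares for Et1, with the arrays of the low spike-in set left and those of the high set right of the dashed line. In 1420088_at the high set reads 920.4 to 1278 and the low set 501 to 704, whereas in 1448306_at the Et1 arrays read 146 to 200.3 and the controls 234 to 280.2.

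When the fit allowed for the spike-in set as a block, again 0 of the 19 member probe sets were called, against 3.85% of all tested. The smallest adjusted p was then that of Nfkbiz 1417483_at, at a log2 fold change of -0.64 (adjusted p = 0.0703, limma), with -0.66 within the low and -0.62 within the high set. For Nfkbia the block gave log2 fold changes of -0.38 in 1420088_at, -0.64 in 1438157_s_at, -0.33 in 1449731_s_at, -0.44 in 1448306_at and 0.13 in 1420089_at (adjusted p = 0.109, 0.0918, 0.263, 0.160 and 0.804, limma). Within both sets 4 of the 5 probe sets of Nfkbia had a lower mean in Et1 arrays, from -0.21 to -0.51 in the low and from -0.40 to -0.76 in the high set, and the fifth, 1420089_at, stood at -0.13 and 0.38. The log2 fold change of 1420088_at thus moved from -0.050 to -0.38 on the inclusion of the set.

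The sets themselves, compared as high minus low in a fit that held the group, differed past limma's threshold in 3 of the 19 member probe sets, against 16.7% of all tested. These were Nfkb2 1425902_a_at at a log2 difference of -1.61, Nfkbia 1420088_at at 0.98 and Vcam1 1448162_at at 0.46. The sets did not overlap for 5 of 19 (all probe sets: 32.8%), which besides Nfkb2 1425902_a_at and Nfkbia 1420088_at were Nfkbia 1449731_s_at, Rela and Tnfaip3. The part of the spike-in sets in these results was not tested beyond these values.

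Tnfaip3 encodes A20, an enzyme that edits ubiquitin chains and shuts down signalling from the tumour necrosis factor and interleukin 1 receptors. Its probe set 1433699_at read 62.2, 92.2 and 105 in control and 94.5, 78.7 and 125 in Et1 cultures, a log2 fold change of 0.21 (95% interval -0.40 to 0.82; adjusted p = 0.785, limma). The groups overlap, with control replicate 1 lowest. The other probe set, 1450829_at, had a mean below the filter and read 7.86, 18.3 and 38.9 in control and 65.1, 26.8 and 43.9 in Et1 cultures. With no filter its log2 fold change was 1.26 (95% interval -0.15 to 2.67; adjusted p = 0.623, limma). In both probe sets of Tnfaip3 the 3 arrays of the high spike-in set lay above the 3 of the low set. Allowing for the set, the log2 fold change of 1433699_at was 0.054 (adjusted p = 0.936, limma), with 0.055 within the low and 0.053 within the high set.

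Of the targets, Vcam1 encodes an adhesion molecule that leukocytes grip through the integrin of Itga4 and Itgb1. Probe set 1448162_at of Vcam1 read 1003, 817 and 1420.1 in control and 964, 808 and 989 in Et1 cultures, with means of 1080.1 ± 309 and 920.0 ± 98.2 (SD, n = 3). The groups overlap, and control replicate 3 stands highest. The log2 fold change was -0.20 (SE 0.21; 95% interval -0.68 to 0.28; adjusted p = 0.740, limma). Probe set 1415989_at read 810.1, 629 and 803 in control and 872, 626 and 616 in Et1 cultures, a log2 fold change of -0.094 (95% interval -0.52 to 0.33; adjusted p = 0.872, limma). Probe set 1451314_a_at read 482, 342 and 494 in control and 461, 299.8 and 430.2 in Et1 cultures, a log2 fold change of -0.15 (95% interval -0.66 to 0.35; adjusted p = 0.814, limma). All 3 probe sets were thus slightly lower on average and overlapped. In fold terms their intervals ran from 0.625 to 1.28. Allowing for the spike-in set, the log2 fold changes of the 3 probe sets were -0.35, -0.16 and -0.29 (adjusted p = 0.168, 0.653 and 0.345, limma).

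Csf1 encodes macrophage colony-stimulating factor, on which macrophages depend for survival. Its 4 probe sets had small spreads. Probe set 1460220_a_at of Csf1 read 3509, 4060.2 and 3899 in control and 4303, 4849 and 3539 in Et1 cultures, with means of 3823 ± 283 and 4230.0 ± 658 (SD, n = 3). The log2 fold change was 0.14 (SE 0.14; 95% interval -0.19 to 0.46; adjusted p = 0.739, limma). Probe set 1448914_a_at read 1899.5, 2283 and 2091 in control and 2164, 2579 and 2009 in Et1 cultures, a log2 fold change of 0.10 (adjusted p = 0.806, limma). Probe set 1425154_a_at read 1265, 1468 and 1205 in control and 1328, 1565 and 1129 in Et1 cultures, a log2 fold change of 0.023 (adjusted p = 0.969, limma). Probe set 1425155_x_at read 894, 1153 and 951 in control and 1067, 1184 and 966 in Et1 cultures, a log2 fold change of 0.10 (adjusted p = 0.817, limma). Et1 replicate 2 was the highest array in each of the 4 probe sets, and control and Et1 groups overlapped in each. In fold terms the intervals of the 4 probe sets ran from 0.787 to 1.38, so a 2-fold change in either direction lies outside them.

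Icam1, the adhesion molecule bound by the leukocyte integrins of Itgb2, has 1 probe set, 1424067_at. It read 1.78, 4.70 and 3.75 in control and 4.98, 1.72 and 3.71 in Et1 cultures, far below the filter in all 6 arrays. With no filter the log2 fold change was 0.0059 (95% interval -1.54 to 1.55; adjusted p = 0.999, limma). Signals this low say nothing on whether Icam1 differs between the groups, and a single probe set cannot show that the transcript is absent.

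**Figure D3:**
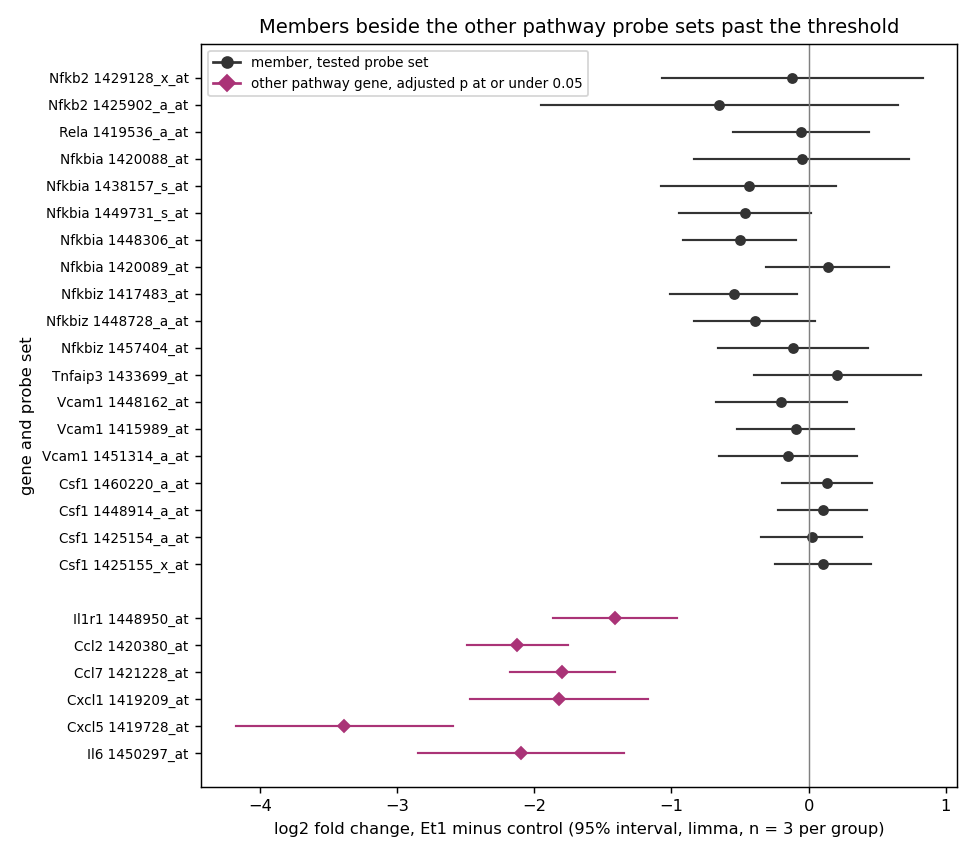
Log2 fold changes, Et1 minus control, with 95% intervals from limma (n = 3 arrays per group) for the 19 tested member probe sets (grey circles) and the 6 other pathway probe sets past the threshold (purple diamonds). The members lie between -0.65 and 0.21, and the 6 others, which were picked for passing the threshold, between -3.39 and -1.41.

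The rest of the pathway was read from 97 further genes in 5 lists by role, of which 65 had a tested probe set. In their brightest probe set 5 of the 65 fell and 0 rose past limma's threshold, against 0.274% lower and 0.137% higher of 11666 tested genes. The 5 were Il1r1 and the secreted targets Ccl2, Ccl7, Cxcl5 and Il6, and Cxcl1 fell in a probe set that was not its brightest, which makes 6 lower and 0 higher by any probe set (all genes: 0.36% and 0.154%). With the replicate number as a block 6 of the 65 were lower and 0 higher in the brightest probe set (all genes: 2.02% and 0.9%), Mcam being added. Allowing for the spike-in set, 7 were lower and 0 higher (all genes: 2.72% and 1.75%), with Mcam and the brightest probe set of Cxcl1 added. At an unadjusted p under 0.05, 10 of the 65 were lower and 5 higher (all genes: 6.53% and 6.93%). The median log2 fold change of the 65 was -0.042. The lists were written with earlier results of these data known, so the falls of the chemokines and Il6 are not independent support for anything about the pathway.

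Of the falls past the threshold, those of other known targets were larger than that of Il1r1 in the fit with no block. With 50 added before log2, Il1r1 stood at -1.14, Il6 at -1.19 and Cxcl1 (1419209_at) at -1.28. Ccl7, Ccl2 and Cxcl5 then stood at -1.59, -1.88 and -2.44. Within the low spike-in set Cxcl1 fell less than Il1r1, at -1.38 and -1.47. Within the high set it fell more, at -2.46 and -1.16. The order of these falls was not tested. Ccl2, a chemokine that attracts monocytes, read 953, 742 and 969.6 in control and 193, 200.0 and 215 in Et1 cultures, a log2 fold change of -2.12 (95% interval -2.49 to -1.75; adjusted p = 0.005, limma). Il6, an inflammatory cytokine, read 174, 108 and 149.7 in control and 29.9, 23.6 and 51.1 in Et1 cultures, a log2 fold change of -2.10 (95% interval -2.85 to -1.34; adjusted p = 0.0485, limma). The groups lie apart in both. Ccl7, Cxcl5 and Cxcl1 (1419209_at) had log2 fold changes of -1.79, -3.39 and -1.82 (adjusted p = 0.00914, 0.0141 and 0.0485, limma), and the other 2 probe sets of Cxcl1 stood at -0.63 and -0.40 without passing. Allowing for the spike-in set, the brighter of these, 1457644_s_at, was lower past the threshold, at -0.73 (adjusted p = 0.0231, limma). Of the 21 tested targets 15 had lower and 6 higher means, with a median of -0.13. The intervals of Ccl2 and Il6 do not meet those of any probe set of Vcam1 or Csf1. Ccl2 and Il6 were picked for passing the threshold in these same data, which favours such a gap. The difference between these genes was not tested as such.

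Upstream, Il1r1, the receptor through which interleukin 1 turns the pathway on, fell from 454, 335 and 289 in control to 138, 141 and 120.3 in Et1 cultures. Its means were 359 ± 84.9 and 133 ± 11.2 (SD, n = 3), a log2 fold change of -1.41 (SE 0.20; 95% interval -1.86 to -0.96; adjusted p = 0.0357, limma). The groups lie apart, and the fall was -1.47 within the low and -1.16 within the high spike-in set. It was the 1 gene called among 22 tested receptors, adaptors and kinases, of which 11 had lower and 11 higher means. Next by p stood Cd40, a receptor of the non-canonical arm, at 0.73 in its brighter probe set, Ikbkg, the scaffold NEMO of the kinase complex, at 0.37, and Traf5, an adaptor, at -0.54 (adjusted p = 0.334, 0.393 and 0.403, limma). The other tested probe set of Cd40, 1460415_a_at, stood at 1.39 (adjusted p = 0.231, limma). The other tested probe sets of Ikbkg ran from 0.12 to 0.75 without passing. Traf3, Ripk1, Irak4 and Chuk were not analysed here.

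These calls rest on few arrays. Leaving out 1 array, Ccl2 stayed past limma's threshold in each of the 6 fits and Il6 in none (adjusted p from 0.0556 to 0.291). Il1r1 and Cxcl1 stayed past it only without control replicate 3, with adjusted p of up to 0.207 and 0.220 in the other fits, both without control replicate 1. Cxcl5 was lost without control replicate 1 or 2 (adjusted p = 0.0757 and 0.0771). Ccl7 was lost without control replicate 1, Et1 replicate 1 or Et1 replicate 3 (adjusted p = 0.0757, 0.0563 and 0.0857). The log2 fold changes of the 6 genes kept their sign in every such fit, and Il1r1 ran from -1.55 to -1.23. With 5 of 65 genes called in all arrays, the count was 1 without control replicate 1, 2 without control replicate 2, Et1 replicate 1 or Et1 replicate 3, 3 without Et1 replicate 2 and 4 without control replicate 3.

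Among the other subunits and IkappaB proteins none of 3 tested genes passed limma's threshold, nor an unadjusted p under 0.05. Bcl3, a nuclear IkappaB protein, had lower signals in each Et1 culture, at a log2 fold change of -0.56 (adjusted p = 0.554, limma), with means of 51.9 and 36.1 close to the filter. Nfkbib, a second cytoplasmic inhibitor, stood at -0.019 and Nkrf, a repressor of NF-kappaB, at 0.077. Rel, the subunit of lymphoid cells, had signals of 2.62 to 30.0 and lay below the filter, as did Nfkbie and Nfkbid. The 11 tested brakes had a median of -0.0063, with 6 lower and 5 higher and 0 past limma's threshold (1 lower and 1 higher at an unadjusted p under 0.05). Rnf11, a partner of A20, read 947, 949 and 991 in control and 1195, 1254 and 1276 in Et1 cultures in its brightest probe set. The log2 fold change was 0.37 (adjusted p = 0.280, limma). In the other tested probe sets of Rnf11 the groups overlapped. They stood at 0.12 (1452058_a_at), 0.095 (1442048_at) and 0.55 (1426405_at) without passing. Itch, a ubiquitin ligase that also works with A20, stood at -0.44, Tnip1, which binds A20, at -0.39 and Tax1bp1, an adaptor of A20, at 0.28 (adjusted p = 0.379, 0.424 and 0.555, limma).

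**Figure D4:**
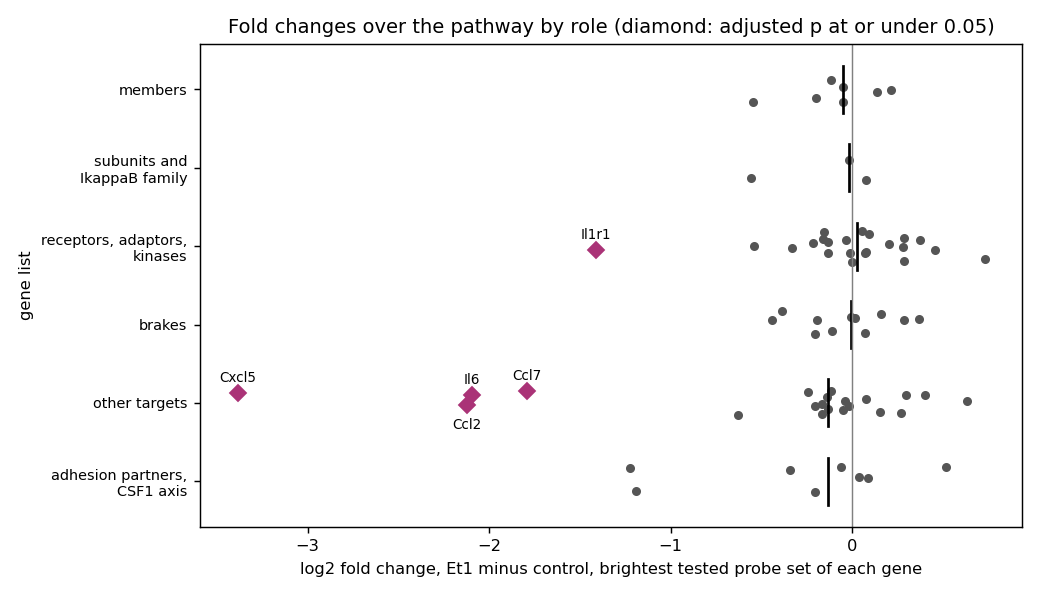
Log2 fold changes, Et1 minus control, of each tested gene by its brightest probe set, for the members and the 5 lists by role, with the median of each list as a black bar and the genes past an adjusted p of 0.05 as labelled diamonds. The 5 diamonds are Il1r1 and, among the other targets, Cxcl5, Ccl2, Il6 and Ccl7, all lower in Et1 cultures.

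Of the partners that Vcam1, Icam1 and Csf1 act on, and related adhesion genes, none of 8 tested passed limma's threshold (2 lower and 1 higher at an unadjusted p under 0.05). Itga4, a chain of the Vcam1 receptor, had 1 tested probe set, which read 61.0, 66.1 and 60.7 in control and 12.4, 37.9 and 43.8 in Et1 cultures, a log2 fold change of -1.19 (95% interval -2.31 to -0.070; adjusted p = 0.379, limma). Itgb1, the other chain, had a log2 fold change of 0.036 in its brightest probe set, with a 95% interval of -0.22 to 0.30. For Csf1r, the receptor of Csf1, the log2 fold change was 0.086 in the brightest probe set, 1423593_a_at, and -0.75 in 1419872_at (adjusted p = 0.880 and 0.155, limma), so its probe sets disagree. Il34, the other ligand of that receptor, had signals of 10.7 to 25.7, below the filter. Mcam, an adhesion molecule of vessel walls, stood at -1.22, Alcam, a partner of the lymphocyte receptor CD6, at 0.51 and Selp, a selectin of platelets and vessels, at -0.34 (adjusted p = 0.226, 0.315 and 0.799, limma). Mcam was lower past the threshold when the fit allowed for the spike-in set, at -0.88, and with the replicate number as a block, at -1.22 (adjusted p = 0.0048 and 0.0172, limma).

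Adhesion molecules and Csf1r are also made by other cells that a skin culture can hold. Of 8 endothelial markers 6 lay below the filter, with Pecam1 at 3.58 to 12.7 and Vwf at 1.16 to 3.17. The summed signal of the 8 ranged from 96.5 to 135 over control and from 133 to 239 over Et1 arrays. Kdr and Cdh5 stood at log2 fold changes of 0.48 and 0.46 (adjusted p = 0.777 and 0.706, limma). Allowing for the spike-in set, they stood at 0.067 and 0.61 (adjusted p = 0.962 and 0.514, limma). Both passed the filter, with signals of 19.5 to 83.9 and 20.0 to 61.2. Of 10 macrophage markers 6 passed it, among them Csf1r at 126 to 178, Cd14, a co-receptor for bacterial lipopolysaccharide, at 71.0 to 89.3 and Adgre1, the F4/80 antigen, at 52.4 to 82.0. The other 4 lay below it, with Ptprc, the pan-leukocyte antigen, at 7.33 to 30.0 and Itgam at 6.79 to 22.5, and the sum of the 10 ranged from 478 to 580.2 over control and from 507 to 607 over Et1 arrays. The sums of the 6 keratinocyte markers were 322 to 442 and 361 to 437, those of the 6 melanocyte markers 248 to 303 and 268 to 293, and those of the 6 pericyte and smooth muscle markers 503 to 922 and 349 to 555, in control and Et1 arrays. No gene of these lists or of the fibroblast list passed limma's threshold with no block. At an unadjusted p under 0.05 there were 2 of 4 tested pericyte and smooth muscle and 3 of 9 fibroblast markers, all lower. Of all tested genes 6.53% were lower at that p. Of the 9 tested fibroblast markers 8 were lower on average with Et1 (all probe sets: 45.9%). The median of the 9 log2 fold changes was -0.50. Col1a1 read 5633 to 6728 in the low and 1159 to 1897 in the high spike-in set. With the set in the fit its log2 fold change moved from -0.93 to -0.30 (adjusted p = 0.394, limma). Allowing for the spike-in set, Mcam and 3 fibroblast markers were lower past the threshold (all genes: 2.72%). The 3 were Col3a1, a collagen, at -0.93, Pdgfrb, a growth factor receptor, at -1.04 and Thy1, a surface protein, at -0.83 (adjusted p = 0.0163, 0.00684 and 0.0106, limma). The replicate number as a block called the same 4 genes, all lower (all genes: 2.02%). The part of other cells in the values above was not tested, and fewer cells of a type and less RNA per cell cannot be told apart in such bulk samples.

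The genes whose signals over the 6 arrays were most like those of Nfkbia 1448306_at were Gstm1, a glutathione transferase, Psmd1, a subunit of the proteasome, and Pdlim5, a protein of the actin cytoskeleton. Their Pearson correlations with it were 0.998, 0.996 and 0.995 over 6 arrays, picked as the 3 highest of all named genes tested. The log2 fold changes of these genes were -0.39, -0.22 and -0.46, and none passed limma's threshold (adjusted p = 0.372, 0.549 and 0.310).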

How the data were processed

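Total RNA of 3 control and 3 Et1 cultures was labelled with biotin and hybridised to Mouse430_2 arrays, per the labels' protocols. Each probe set has 1 intensity on a linear scale in the deposited table, computed with MAS5 according to the submitters' processing notes. Its version and target level were not given in the sources used here, and detection calls were not used. Here each array was scaled to a common 2% trimmed mean, 4 zeros were replaced by that array's lowest signal above 0, log2 was taken with no pseudocount, and the 64 Affymetrix controls were left out. Probe sets whose mean scaled signal was at or above the median of 41.0 were tested, 22519 of 45037. Names came from GEO's annotation of the platform: 34945 had 1 gene symbol, 932 several and 9160 none, and of the single symbols 34741 matched RefSeq's GRCm38.p6 gene table on gene identifier and 0 changed.

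The labels gave the groups and replicate numbers. Et1 was compared with control by limma 3.58.1 in R 4.3.3 (lmFit, eBayes with an intensity trend, no block), adjusted by Benjamini-Hochberg over all tested probe sets at 0.05. Intervals are limma's 95% intervals of single probe sets, not adjusted. The number of arrays limits the precision. The fit was tested on simulated arrays with the real levels and spreads, 22519 probe sets, in which 50 were changed by each of 4 sizes. It found 0 of those changed 1.5-fold, 11 of the 2-fold, 33 of the 4-fold and 43 of the 8-fold ones, and made 4 false calls. The simulated noise was drawn separately for each probe set and array. It held no split like that of the spike-in sets, so these counts do not cover it.

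Every member was described by every probe set. Of the lists by role, genes past the threshold in any tested probe set were named. So were up to 4 genes per list by the smallest p of the brightest probe set. Fixed partners of members (Rel, Csf1r, Il34, Itga4, Itgb1) were also named, as were Nfkbie, Nfkbid, Traf3, Ripk1, Irak4 and Chuk. Tnip3, Bcl2a1a and C3 of the lists were not analysed here. The 3 genes most like the member probe set with the smallest p were named too. The members and lists were chosen with earlier results of these data known. The spike-in split was known from those results too. Alternatives were quantile normalization, median centring, filtering at the 75th percentile or not at all, 50 added before log2, no intensity trend, each array left out, a block for replicate number or for spike-in set, and the mean of a gene's probe sets.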

Additional observations from a re-analysis of the deposited data

How the results depend on the processing

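With 3 arrays per group, a 2-fold change was called in few simulated probe sets, so a member that was not called is not shown to be unchanged. No member probe set was called by limma under any setting run; the smallest adjusted p was 0.0703 (Nfkbiz 1417483_at, spike-in set block). Of all tested probe sets 78 were called, 28.2% of them higher; the count was 44 with median centring (15.9% higher), 40 with no filter, 7 with no intensity trend and 868 with the spike-in set block. Leaving out 1 array gave 4 to 229 calls: 4 without control replicate 1 or 2, 229 without control replicate 3, and 10, 46 and 6 without Et1 replicate 1, 2 or 3. Of the other pathway genes 5 fell; it was 3 with no filter, 1 with no intensity trend and 1 to 4 with 1 array left out.

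A replicate block gave 567 calls, 0 among the members. Deviations of the same-numbered arrays correlated at -0.12, 0.44 and 0.45, so not every same-numbered pair correlated above 0.1. Et1 replicates 2 and 3 correlated best with the control of their own number and Et1 replicate 1 with control replicate 3. Every pair within a spike-in set correlated positively, at 0.26 to 0.45, and every pair across the sets negatively, at -0.57 to -0.12. Deviations from the group means sum to 0 within a group, so each array must have correlations of both signs with the other group. The correlations are therefore not independent, and part of their sign pattern is fixed. Their signs follow the spike-in sets, and they cannot tell shared splits from these sets. Whether the numbers mark shared splits is not settled by the labels or by these values, and the numbers were not treated as pairs.

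Signs turned, with no call, for Nfkb2 1429128_x_at (0.024) and Rela (0.095) with the spike-in set block and for Csf1 1425154_a_at (-0.029) with median centring. With 1 array left out, log2 fold changes ran from -0.48 to 0.28 for Nfkb2 1429128_x_at, -0.23 to 0.14 for Rela, -0.29 to 0.28 for Nfkbia 1420088_at, -0.26 to 0.092 for Nfkbiz 1457404_at, -0.010 to 0.37 for Tnfaip3 1433699_at, -0.38 to 0.018 for Vcam1 1448162_at, -0.32 to 0.039 for Vcam1 1451314_a_at, -3.08e-05 to 0.18 for Csf1 1448914_a_at and -0.095 to 0.14 for Csf1 1425154_a_at. The cause was not tested. Under other settings, calls lost were Cxcl1 (adjusted p = 0.0575 with quantile normalization, 0.0594 with median centring, 0.0816 with no filter, 0.0511 with 50 added and 0.122 with no trend), Il6 (0.0816 with no filter and 0.108 with no trend), Il1r1 (0.0538 and 0.0967), Cxcl5 (0.0540 with no trend) and Ccl7 (0.0522 with no trend), all from limma.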
